A study of Mus musculus with 3 samples.

Results

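The integrin subunit genes described here are 10 genes of mouse macrophages: Itgam, Itgax, Itgal, Itgb2, Itga4, Itga5, Itga6, Itgav, Itgb1 and Itgb5. They are 7 alpha and 3 beta chains, taken by gene symbol out of 26 genes for integrin alpha and beta subunits and 55536 annotated genes in all. Total RNA was sequenced after depletion of ribosomal RNA from the cytosolic fraction of bone-marrow-derived macrophages of C57BL/6J mice, which are primary cells grown from marrow. All libraries belong to 1 group: the cells received 100 ng/ml Lipid A for 12 h, a washout of 12 h, and 100 ng/ml Lipid A again for 10 min. Lipid A is the membrane-anchored part of bacterial endotoxin and the ligand of Toll-like receptor 4. The 3 libraries, labelled biological replicates 1, 2 and 3, carry the same donor identifier, sex and age were not collected, and separate animals are not stated, so tests between libraries measure their spread, which may be technical. No untreated or singly treated cells were analysed here, so the values below are levels and not responses.

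Integrins are heterodimers of 1 alpha and 1 beta chain that bind matrix proteins, complement fragments or receptors on other cells. Talin and kindlin bind the beta tail inside the cell and switch the dimer to a state of high affinity. The beta 2 chain is restricted to leukocytes and pairs with alpha L (LFA-1, which binds ICAMs), alpha M (Mac-1 or CR3, which binds iC3b and fibrinogen), alpha X (p150,95 or CR4) and alpha D. The beta 1 chain is widely expressed and pairs with many alpha chains, among them alpha 4 (a receptor of VCAM-1 and fibronectin), alpha 5 (the main fibronectin receptor) and alpha 6 (a laminin receptor). The alpha v chain pairs with several beta chains, and with beta 5 it makes a receptor of vitronectin.

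Gene counts summed to 31968675, 53094481 and 57070432 in replicates 1, 2 and 3. Levels are given as TPM, a transcript abundance that divides reads by transcript length and so lets genes be compared within a library. TPM of a subunit also depends on the other RNAs in the same library: nuclear-encoded protein-coding genes held 34.3% of TPM in replicate 1 and 27.8% in each of the others. Levels between libraries are therefore also given in CPM (counts scaled to the library's total of gene counts) or as coding-scaled TPM, in which nuclear-encoded protein-coding genes take the whole total. Replicate 1 stood apart. Its nuclear-retained RNAs were higher, with Malat1 at 1333, 118 and 152 TPM, Neat1 at 66.0, 13.9 and 17.6 TPM and Xist at 32.6, 0.42 and 0.35 TPM in replicates 1, 2 and 3. Their part in the subunit values was not tested, and results that rest on replicate 1 are given without it as well.

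Of the 10 subunits 9 were present at 1 TPM or more in every library, against 41.4% of 22015 nuclear-encoded protein-coding genes (9110 genes), and Itgax was the exception. Itgb2 and Itgb1 stood highest, at 108.9 ± 8.17 and 90.2 ± 4.11 TPM (mean ± SD, n = 3). They ranked 421 and 512 among the protein-coding genes. The genes nearest to Itgb2 in mean level were Anxa2, an annexin gene (108.9 ± 2.80 TPM), and Atp6ap1, a gene for an accessory subunit of the proton pump (108.9 ± 6.88 TPM). Those nearest to Itgb1 were the scavenger receptor gene Marco (90.2 ± 63.6 TPM) and Dazap2 (90.2 ± 9.79 TPM). This likeness is one of the mean over 3 libraries, since 1 condition gives no pattern to match, and the SD of Marco was far larger than that of Itgb1. The 10 subunits had a median of 24.7 TPM, against 0.16 TPM over the protein-coding genes. The members were chosen with earlier results of these data known. Their share at 1 TPM and their median therefore describe the chosen genes and are no test against all protein-coding genes.

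**Figure D1:**
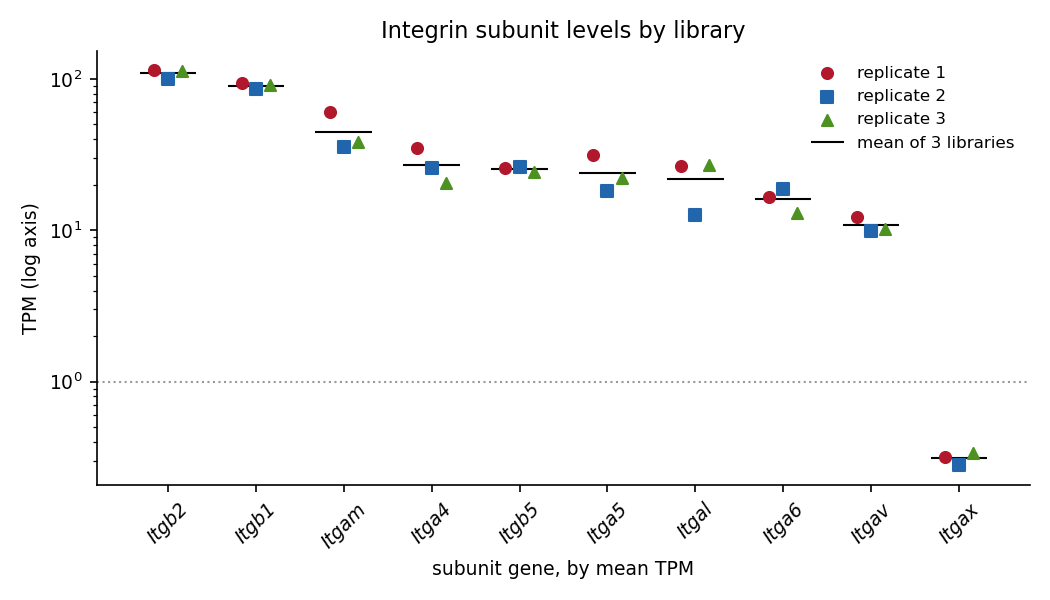
TPM of the 10 subunits in each library on a log axis, ordered by mean TPM; symbols are replicates 1, 2 and 3, horizontal bars are means of 3 libraries, and the dotted line marks 1 TPM. Itgb2 and Itgb1 lie above every other subunit in each library, and Itgax lies under 1 TPM in all of them.

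Itgb2, the common chain of the leukocyte integrins (ENSMUSG00000000290.13, plus strand, chr10:77530252-77565708, mm10), stood at 114, 99.5 and 114 TPM in replicates 1, 2 and 3. In CPM it was 438, 473 and 553, so replicate 1, level with replicate 3 in TPM, was lowest in CPM. Rescaled over protein-coding genes it reached 331, 358 and 409, highest in replicate 3. Transcript Itgb2-201, which encodes 770 residues, held 95.8% ± 0.483 of the gene's TPM (n = 3).

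Itgam, the alpha M gene (ENSMUSG00000030786.18, plus strand, chr7:128062640-128118491), was the highest alpha subunit, at 60.3, 35.7 and 38.1 TPM in replicates 1, 2 and 3. Replicate 1 was the highest, with no such gap between the others. This order held in CPM (380, 277 and 304) and in coding-scaled TPM (176, 128 and 137), where replicate 1 was nearer to the others. Without replicate 1, Itgam was still above every other alpha subunit in each library. A same-strand coding gene that overlaps it, Gm49368, had 62.0, 59.5 and 75.6 expected counts beside 12161, 14710 and 17377 for Itgam, and the counts of Itgam were fractional, which marks reads shared between annotated entries.

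Most of the Itgam level lay in a pair of transcripts that differ in their coding sequence by 3 bases, chr7:128101634-128101636, at the start of exon 14 of Itgam-201. These sequences are shown because the pair splits nearly the whole level of the gene. Bases of the exon junction are in lower case and the 3 bases that Itgam-201 has in addition are in capitals.
Itgam-201: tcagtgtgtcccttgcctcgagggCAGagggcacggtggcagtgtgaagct
Itgam-203: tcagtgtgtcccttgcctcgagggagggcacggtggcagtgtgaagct
The insertion keeps the reading frame, so that the products have 1154 and 1153 residues and differ at residue 500. Itgam-203, without the 3 bases, held 61.5%, 58.6% and 60.6% of the gene's TPM in replicates 1, 2 and 3, and Itgam-201 held 36.3%, 40.4% and 38.4%. Itgam-203 was above Itgam-201 in every library with no overlap. In the tables made directly from the reads the means were 59.3% and 36.4%.

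Itgal, the alpha L gene (ENSMUSG00000030830.18, plus strand, chr7:127296260-127335138), stood at 26.5, 12.6 and 26.8 TPM in replicates 1, 2 and 3. Replicate 2 was low, and replicates 1 and 3 lay close together. Expected counts were 5615, 5246 and 12770, which is 176, 98.8 and 224 CPM. Replicate 2 was at 0.499-fold of the others on the mean log2 CPM scale. Of 12515 genes tested, 2.73% lay at least 1 below the others on the log2 scale in replicate 2, as Itgal did. The replicate and the gene were chosen for this after the values were seen. Itga9, the alpha 9 gene, had a log2 difference of -0.98 in the same library.

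Itgal was split between transcripts of which the leading one, Itgal-201 (1162 residues), held 49.1%, 56.9% and 50.2% of the gene's TPM. Itgal-202 (1161 residues) lacks the last 3 bases of exon 18, chr7:127317364-127317366, again without a change of frame. The sequences are shown because the deposited tables disagree on how much of the gene lacks these bases, which are in capitals.
Itgal-201: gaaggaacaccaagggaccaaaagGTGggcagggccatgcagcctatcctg
Itgal-202: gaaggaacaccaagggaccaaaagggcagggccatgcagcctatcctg
In the transcript tables with expected counts, Itgal-202 held 24.3%, 8.70% and 23.2% and Itgal-203, which lacks the first 11 exons of Itgal-201 and encodes 765 residues, held 24.3%, 31.9% and 25.3%. In the tables made directly from the reads, Itgal-202 held 43.6% ± 1.44 and Itgal-203 2.56% ± 1.88 (n = 3). Itgal-201 led in both kinds of table, while the shares of the others depend on how reads were assigned.

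Itgax, the alpha X gene and a common marker of dendritic cells (ENSMUSG00000030789.9, plus strand, chr7:128129547-128150657), stood at 0.32, 0.28 and 0.34 TPM. It rested on 49, 101 and 101 expected counts, so its level is low and not zero. Itgam exceeded it 188-, 127- and 112-fold in replicates 1, 2 and 3. Both genes lie on the same strand of chromosome 7 with 11.1 kb between them, and Itgad, the alpha D gene, follows after 3.72 kb at 0.04 TPM. Itgal lies on the same chromosome, 728 kb before Itgam. The 250 bases before the start of each neighbour are shown because adjacent genes of like structure differed so far in level. They are from RefSeq (GRCm38.p6), plus strand, chr7:128062390-128062639 for Itgam and chr7:128129300-128129549 for Itgax. Capitals mark matches of the motifs searched on both strands: GAGGAA, part of sites for the myeloid factor PU.1 (TTCCTC on the opposite strand), and GGGCGG, part of sites for SP1 (CCGCCC on the opposite strand), with no overlaps. TATAAA was searched as well.
Itgam promoter: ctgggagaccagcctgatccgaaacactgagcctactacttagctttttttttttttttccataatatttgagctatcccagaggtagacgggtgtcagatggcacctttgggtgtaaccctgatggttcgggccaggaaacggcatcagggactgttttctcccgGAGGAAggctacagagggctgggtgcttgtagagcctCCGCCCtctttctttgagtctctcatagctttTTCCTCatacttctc
Itgax promoter: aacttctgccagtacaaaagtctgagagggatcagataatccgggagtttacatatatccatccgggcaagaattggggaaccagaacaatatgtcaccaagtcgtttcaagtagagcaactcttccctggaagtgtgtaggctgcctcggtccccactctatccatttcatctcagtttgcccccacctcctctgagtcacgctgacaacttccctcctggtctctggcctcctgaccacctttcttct
The Itgam window held GAGGAA at 84 and, on the opposite strand, 15 bases before the start, and GGGCGG on the opposite strand at 47 bases before it. The Itgax window held none of these motifs. Among 32851 RefSeq windows of this length, 23.3% held GAGGAA and 32.7% held GGGCGG, on either strand. Windows of 7 subunits were in the table (Itga4, Itgav, Itgam, Itgax, Itgb1, Itga5 and Itgb5), of which 4 held GAGGAA, 5 held GGGCGG and 0 held TATAAA, a motif found in 12.4% of all windows. These are matches of letters and not measured binding sites.

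Itgb1, the common chain of the largest integrin family (ENSMUSG00000025809.15, plus strand, chr8:128685654-128733200), stood at 93.6, 85.6 and 91.3 TPM. The libraries lay within 10 TPM of one another. CPM was 481, 540 and 593, lowest in replicate 1, as for Itgb2. Itgb2 exceeded Itgb1 1.21-, 1.16- and 1.24-fold in replicates 1, 2 and 3. Itgb1-201, which encodes 798 residues, held 99.3% ± 0.113 of the gene's TPM (n = 3).

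Itga4, the alpha 4 gene (ENSMUSG00000027009.18, plus strand, chr2:79255426-79333123), stood at 35.0, 25.8 and 20.5 TPM in replicates 1, 2 and 3. In CPM the values were 431, 426 and 350, so replicates 1 and 2 were close and replicate 3 was lower. Itga4-201 (1032 residues) held 87.1%, 97.8% and 98.1% of the gene's TPM, least in replicate 1. Cerkl overlaps Itga4 on the opposite strand and had 66.9, 107 and 84.6 expected counts beside 13782, 22642 and 19982 for Itga4. Whether reads were counted by strand is not stated, so these genes cannot be told apart fully.

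Itga5, the alpha 5 gene (ENSMUSG00000000555.8, minus strand, chr15:103344286-103366763), stood at 31.5, 18.1 and 22.1 TPM. Replicate 1 was highest, also in CPM (177, 132 and 166), where replicate 3 was close to it. Itga5-201 (1053 residues) held 97.7% ± 3.31 of the gene's TPM (n = 3).

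Itga6, the alpha 6 gene (ENSMUSG00000027111.15, plus strand, chr2:71745616-71858416), stood at 16.7, 18.7 and 13.0 TPM, and its CPM of 78.4, 110 and 78.2 was highest in replicate 2. The gene is known for alternative cytoplasmic tails, called A and B, that follow the same membrane-spanning part. In the annotation the A tail comes from exon 25 of Itga6-201 (chr2:71853534-71853663, of which 105 bases are coding), and the B tail from the last exon of Itga6-202, which skips it (coding part chr2:71855854-71856012, 159 bases). Both coding stretches are shown because the tail tells the coding transcripts apart.
Itga6-201 tail: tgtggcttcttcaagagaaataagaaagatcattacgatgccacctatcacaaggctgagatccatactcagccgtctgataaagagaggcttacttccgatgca
Itga6-202 tail: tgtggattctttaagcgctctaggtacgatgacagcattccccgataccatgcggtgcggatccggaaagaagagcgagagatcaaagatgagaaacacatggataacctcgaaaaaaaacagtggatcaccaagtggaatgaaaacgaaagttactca
Itga6-201 (1073 residues) held 49.8%, 54.0% and 52.6% of the gene's TPM, and Itga6-202 (1091 residues) held 1.11%, 0.33% and 1.65%. As the reads were assigned, the level of full-length coding transcripts thus came almost wholly from the transcript with the A tail. A further 45.1%, 44.7% and 43.3% was assigned to Itga6-203, a 3-exon processed transcript of 2721 bases with no annotated coding sequence. Itga6-203 shares with Itga6-202 the junction that skips exon 25 (chr2:71849506-71855854) and has none of the junctions that set Itga6-201 apart. This junction ends at the first base of the B tail stretch. Whether its reads belong to Itga6-203 or to Itga6-202 was not tested, so the share of RNA with the B tail is not settled. Itga6-203 rested on 862, 1949 and 1450 expected counts beside 1563, 3854 and 2890 for Itga6-201. In the tables made directly from the reads its share was 41.6% ± 0.937 (n = 3).

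Itgav, the alpha v gene (ENSMUSG00000027087.11, plus strand, chr2:83724397-83806916), stood at 12.2, 9.82 and 10.2 TPM. Its CPM of 79.5, 79.6 and 82.6 was nearly level over the libraries. Itgav-201 (1044 residues) held 63.9% ± 1.27 of the gene's TPM (n = 3). The incomplete models Itgav-205 and Itgav-206, of 463 and 688 bases, held 17.7% ± 4.35 and 16.4% ± 6.45 (n = 3). They rested on 28.4, 31.3 and 38.8 and on 22.5, 86.7 and 94.4 expected counts, beside 2438, 4101 and 4571 for Itgav-201, since TPM divides by length. The full-length level of Itgav was thus 7.75, 6.42 and 6.44 TPM. Gm13684, on the opposite strand of Itgav, had 13.5, 2 and 1.09 expected counts.

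Itgb5, the beta 5 gene (ENSMUSG00000022817.15, plus strand, chr16:33829665-33949338), stood at 25.6, 26.3 and 24.4 TPM, and its CPM of 93.1, 116 and 111 was lowest in replicate 1. Its level was split between Itgb5-202 (799 residues), at 55.1%, 51.4% and 52.3%, and Itgb5-207, at 41.5%, 47.4% and 45.6%. Itgb5-207 begins at chr16:33891941-33892049, lacks the first 5 exons of Itgb5-202 and encodes 486 residues. Itgb5-202 was higher in every library, without overlap.

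Summed over the members of a family, the alpha chains stayed below their beta chain in every library. The summed TPM of Itgam, Itgal and Itgax was 0.766, 0.488 and 0.574 times that of Itgb2 in replicates 1, 2 and 3 (0.609 ± 0.142, n = 3). Itgam alone came to 0.530, 0.359 and 0.335 of Itgb2 and Itgal alone to 0.233, 0.126 and 0.236. Mac-1 alpha RNA thus exceeded LFA-1 alpha RNA 2.28-, 2.84- and 1.42-fold. Without replicate 1 the beta 2 ratio was 0.531. Undivided by transcript length, the counts gave a mean ratio of 1.01, since the alpha transcripts are longer, and TPM was used for this reason.

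The summed TPM of Itga4, Itga5 and Itga6 was 0.888, 0.730 and 0.608 times that of Itgb1 (0.742 ± 0.141, n = 3), and 0.669 without replicate 1. Itga4 came to 0.30 ± 0.075, Itga5 to 0.263 ± 0.065 and Itga6 to 0.179 ± 0.038 of Itgb1 (n = 3). Itga5 overlapped both Itga4 and Itga6 in range, and Itga4 was above Itga6 in every library. Adding Itgav, which also pairs with beta 1, gave 1.02, 0.844 and 0.720 in replicates 1, 2 and 3, so that alpha then stood above beta in replicate 1. With all known alpha partners of beta 1 the values were 1.05, 0.855 and 0.737. With full-length coding transcripts alone, those with complete ends and a coding sequence of at least 90% of the gene's longest, the beta 1 ratio was 0.635 ± 0.097, mostly through Itga6, which then came to 0.096 ± 0.021. Itgav was 0.476, 0.374 and 0.419 times Itgb5 (0.423 ± 0.051), and 0.497 ± 0.0327 with full-length coding transcripts alone, which leave out the short models of Itgav and Itgb5-207. RNA ratios do not give the number of dimers on the cell surface.

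**Figure D2:**
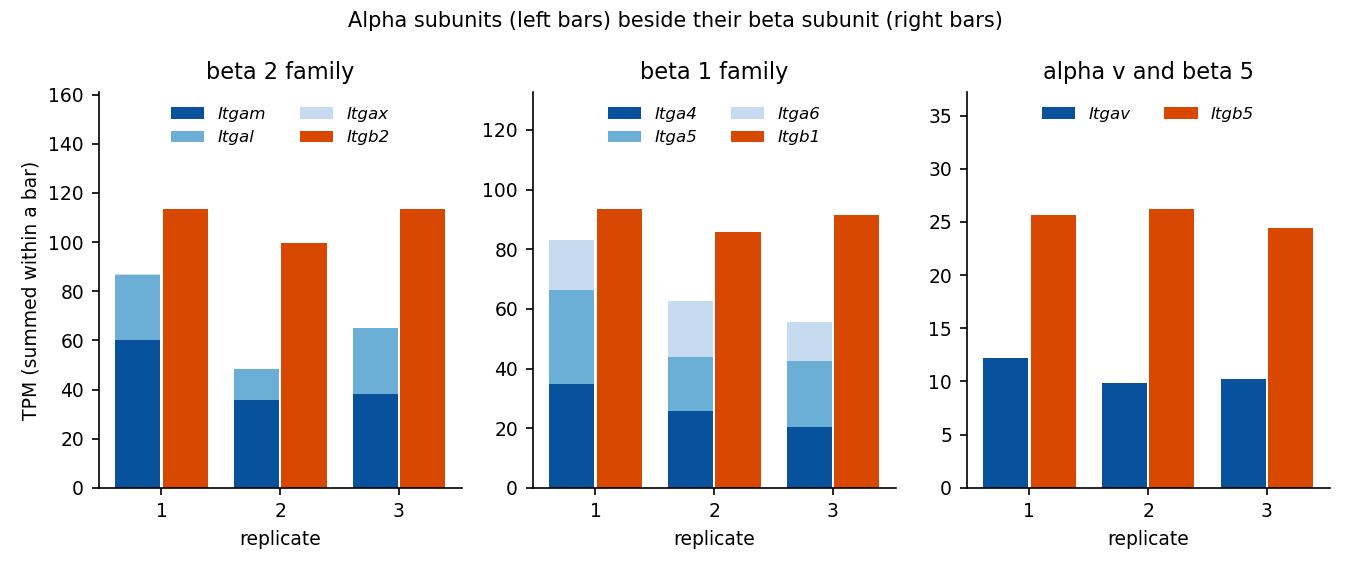
TPM of alpha subunits (left bars, stacked) beside their beta subunit (right bar) in replicates 1, 2 and 3, for the beta 2 family, the beta 1 family and alpha v with beta 5; each panel has its own linear axis from 0. The beta bar is the taller in all 9 pairs of bars, and Itgax is too low to see.

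Ordered by mean TPM, the subunits made 9 neighbouring pairs, of which 5 kept their order in every library without overlap of their ranges. These were Itgb2 over Itgb1, Itgb1 over Itgam, Itgam over Itga4, Itga6 over Itgav, and Itgav over Itgax. The ranges of Itga4, Itgb5, Itga5, Itgal and Itga6 overlapped from each to the next, so their order was not resolved. An exact sign-flip permutation test over 3 libraries cannot give a two-sided p below 0.25, and this was its value for the 5 pairs with a fixed order. For the other pairs the exact p lay between 0.5 and 1.

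Levels differed between libraries by more than counting error for most subunits, as for most genes. In a chi-square test of counts per gene against a single rate, adjusted by Benjamini-Hochberg over 12515 genes, 8 of the 10 subunits passed an adjusted p of 0.05, against 71.5% of all genes tested (8954 genes). With all 3 libraries this share is near the background. All 10 passed the filter on low counts. The exceptions were Itgav (adjusted p = 0.127) and Itgax (adjusted p = 0.627), which had 49 to 101 counts. The largest chi-square was that of Itgal, 2656 on 2 degrees of freedom, with 2.26-fold between its highest and lowest library in CPM. Itgam, Itga4 and Itgb2 followed with 880, 584 and 565, and ratios of highest to lowest CPM of 1.37, 1.23 and 1.26. Without replicate 1, 8 subunits passed against 40.4% of all genes tested (5126 of 12697 genes). Since chi-square rises with counts, this does not show that subunits spread more than other genes. The median BCV without replicate 1 was 0.109 for the subunits and 0.105 for all genes tested. Without replicate 2, 7 passed against 58.2% of all genes, with Itga6 no longer among them (adjusted p = 0.256).

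The biological coefficient of variation (BCV), the spread beyond counting error in edgeR's model, had a median of 0.161 over the subunits and 0.172 over all genes tested. Without replicate 1 the medians were 0.109 and 0.105, so the order of the medians turned. With all libraries the BCV was highest for Itgax (0.316) and Itgal (0.283), and lowest for Itgav (0.114) and Itgb5 (0.131). The other 6 lay between 0.154 and 0.179. For Itgax the chi-square test did not call variation beyond counting error (adjusted p = 0.627). Its BCV is drawn toward the trend of genes of like count, 0.409 with all libraries and 0.199 without replicate 1. Its high BCV therefore does not show that Itgax varied most. Single libraries moved these values. Without replicate 1 Itgax fell to 0.176, Itgb1 to 0.100, Itgam to 0.0972 and Itgb5 to 0.0848, and without replicate 2 Itgal fell to 0.167, below the 0.178 of Itgam. Replicate 1 departed from the mean of replicates 2 and 3 by 1 or more on the log2 CPM scale for 0 of 10 subunits, against 6.38% of all genes tested (798 genes). Itgam (0.39), Itga5 (0.26), Itgal (0.24) and Itga4 (0.16) were higher there, and Itgb5 (-0.28), Itgax (-0.25), Itga6 (-0.24), Itgb1 (-0.23) and Itgb2 (-0.22) lower. Itgav lay at -0.03, and its sign turned with the scaling (0.02 with TMM, 0.03 with DESeq2 size factors), while the other 9 kept theirs. In replicate 1 all 3 beta chains were lower and 4 of 7 alpha chains higher, with no test of that difference.

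**Figure D3:**
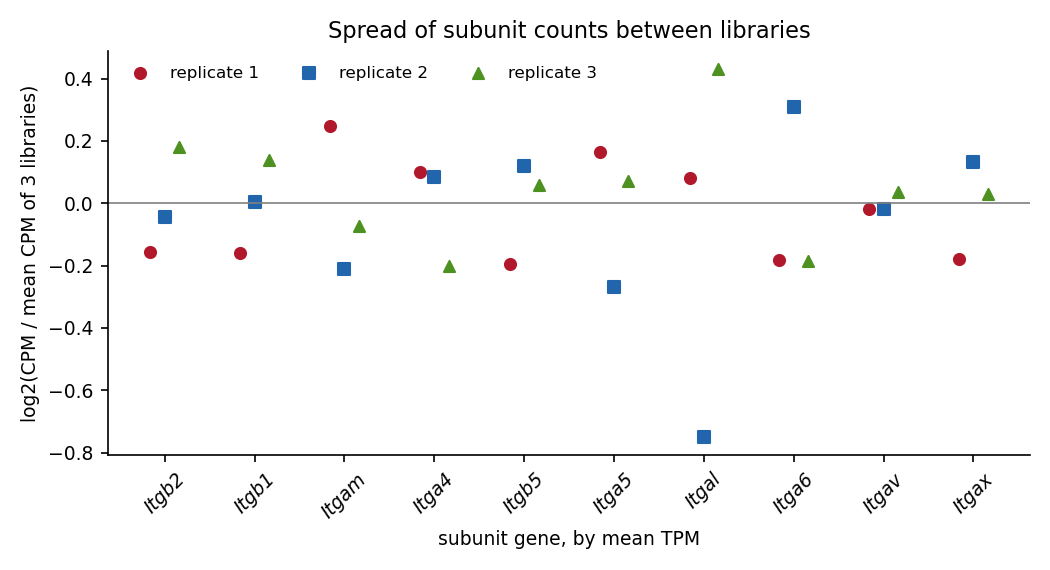
Log2 of CPM in each library over the mean CPM of the 3 libraries, for each subunit. Itgal in replicate 2 is the point farthest from 0 (98.8 CPM, against 176 and 224), while the points of Itgav lie together.

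Of 58 annotated transcripts of the 10 genes, 17 held over 10% of their gene. A single transcript held over 90% of mean TPM in 4 genes, Itgb1, Itga5, Itgb2 and Itga4. In the tables made directly from the reads these were 3 genes, with Itga4-201 at 89.8%. Itgax-201 (1169 residues) held 81.6%, 100% and 75.1% on 46.3, 101 and 100 expected counts, and the remainder rested on 2.67 counts of Itgax-203 in replicate 1 and 1 count of Itgax-202 in replicate 3. The leading transcript was the same in both kinds of table for all 10 genes. On the mean of 3 libraries, full-length coding transcripts held 94.3% or more of TPM for Itgb1, Itgam, Itga5, Itgb2 and Itga4. In replicate 1 alone they held 87.1% for Itga4 and 93.9% for Itga5. The mean share of full-length coding transcripts was 84.9% for Itgax, 71.4% for Itgal, 63.9% for Itgav, 54.3% for Itgb5 and 53.2% for Itga6.

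**Figure D4:**
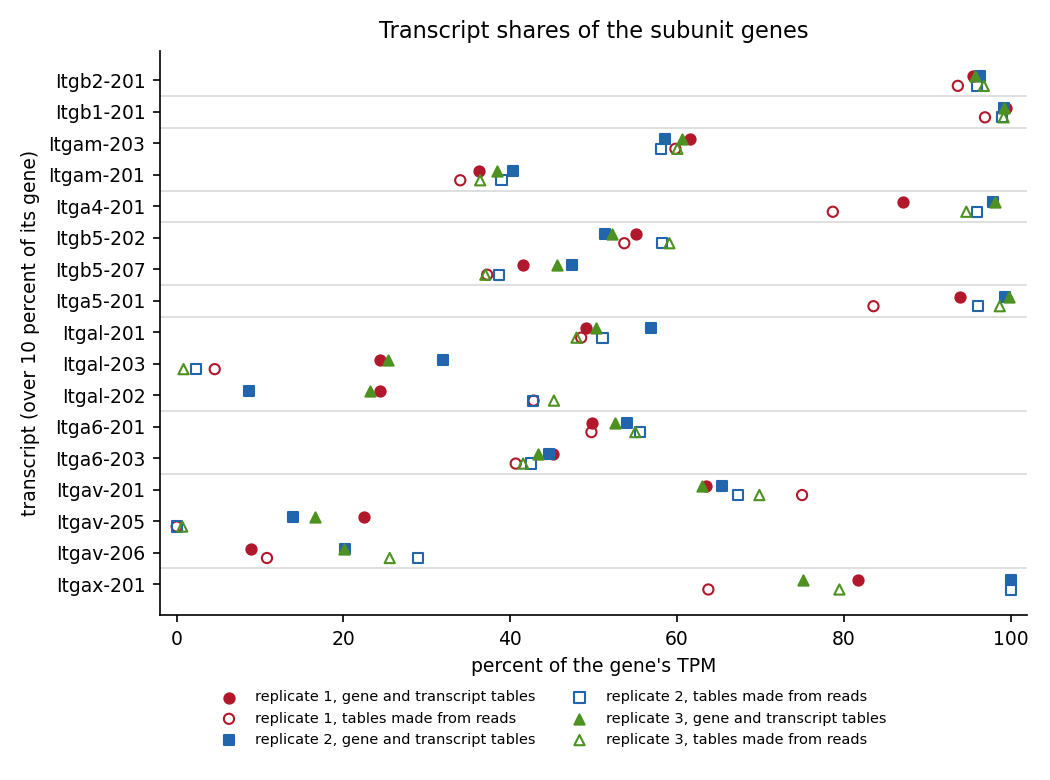
Percent of a gene's TPM held by each transcript over 10% of its gene; filled symbols are the transcript tables with expected counts, open symbols the tables made directly from the reads, one symbol per library. Filled and open symbols lie apart for Itgal-202 and Itgal-203 and for Itgav-205.

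The 10 subunits, chosen with earlier results of these data known, held 98.5%, 98.3% and 98.7% of the summed TPM of 18 alpha and 8 beta genes. Among the other 16 genes Itgb7, the beta 7 chain that pairs with alpha 4 and alpha E, stood at 2.89, 4.02 and 2.85 TPM. Itga9, which pairs with beta 1, stood at 2.43, 0.84 and 1.54 TPM. Both were far below the 9 higher members, and the remaining 14 lay under 1 TPM in every library. Itgb3, the beta chain of the vitronectin receptor and of the platelet fibrinogen receptor, had 0.27, 0.63 and 0.25 TPM, so beta 5 exceeded beta 3 among the partners of alpha v. Itgbl1, a gene for a related secreted protein, had 0 counts throughout, and 3 counts, the limit that 0 allows for counting error alone, would be 0.0194 TPM.

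Of 17 talin, kindlin and inside-out activators 11 reached 1 TPM in every library. Fyb (289 ± 69.8 TPM, n = 3), an adaptor between Rap1 effectors and the actin machinery, and the small GTPase gene Rap1b (179 ± 41.6) were highest. Fermt3, the kindlin of blood cells, followed at 81.3 ± 5.79 and talin gene Tln1 at 52.5 ± 10.6 TPM. Fermt1 and Fermt2, the kindlins of epithelia and of many other tissues, had 0 counts throughout, with a limit of 0.0696 TPM. Of 10 inactivators 8 reached 1 TPM, led by filamin gene Flna (59.9 ± 7.65), which competes with talin, then Sharpin (32.0 ± 4.06), Dok1 (31.7 ± 5.23) and Rasa3 (23.8 ± 3.62), with Rap1gap lowest at 0.62 ± 0.211 TPM (n = 3).

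Of 26 adaptors and kinases of adhesion complexes 21 reached 1 TPM in every library. The kinase genes Lyn (88.5 ± 35.4) and Syk (82.4 ± 18.2 TPM), which act downstream of beta 2 integrins in myeloid cells, and the actin regulator Vasp (72.9 ± 13.8 TPM) were among the highest, and Parva was lowest at 0.0267 ± 0.0379 TPM (n = 3). Of 12 membrane partners 11 reached 1 TPM, led by the tetraspanins Cd63 (262 ± 23.9) and Cd53 (193 ± 34.1), Cd47 (172 ± 55.1) and Slc3a2 (151 ± 19.8 TPM), which encodes the CD98 heavy chain, with Cav1 lowest at 0.0233 ± 0.0153 TPM.

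Fewer of the listed ligand genes reached 1 TPM, though some of them stood high. Of 13 genes for beta 2 ligands 3 reached 1 TPM in every library, namely C3 (94.6 ± 24.1 TPM), the source of iC3b, Icam1 (71.2 ± 22.1) and Icam2 (3.01 ± 0.677), followed by F11r at 0.29 ± 0.104 TPM (n = 3). Jam3, Fga, Fgb and Fgg had 0 counts, with a limit of 0.0780 TPM. Of 22 genes for ligands of the other subunits 8 reached 1 TPM. Spp1, the osteopontin gene (484 ± 90.2 TPM), Tgfb1, whose latent form binds alpha v integrins (117 ± 11.9), Nrros, which holds latent TGF-beta on myeloid cells (89.4 ± 13.8), and Thbs1 (62.9 ± 31.6) led them (n = 3). Madcam1, Vtn, Lamb1, Lama1 and Lama5 were listed at 0 TPM. The share of ligand genes at 1 TPM was below the 41.4% of protein-coding genes for both ligand lists, though near it for the list of 22. By summed TPM that list was not low. It stood at 762, 867 and 720 TPM in replicates 1, 2 and 3, beside 844, 590 and 635 TPM for the adaptors and kinases. Over the 8 lists together, 72 of 128 genes reached 1 TPM in every library. Among genes tested for variation between libraries, 11 of 13 activators, 7 of 10 inactivators, 19 of 22 adaptors and kinases, 11 of 11 membrane partners, 4 of 4 genes for beta 2 ligands and 9 of 10 for the other ligands passed, beside 71.5% of all genes tested.

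**Figure D5:**
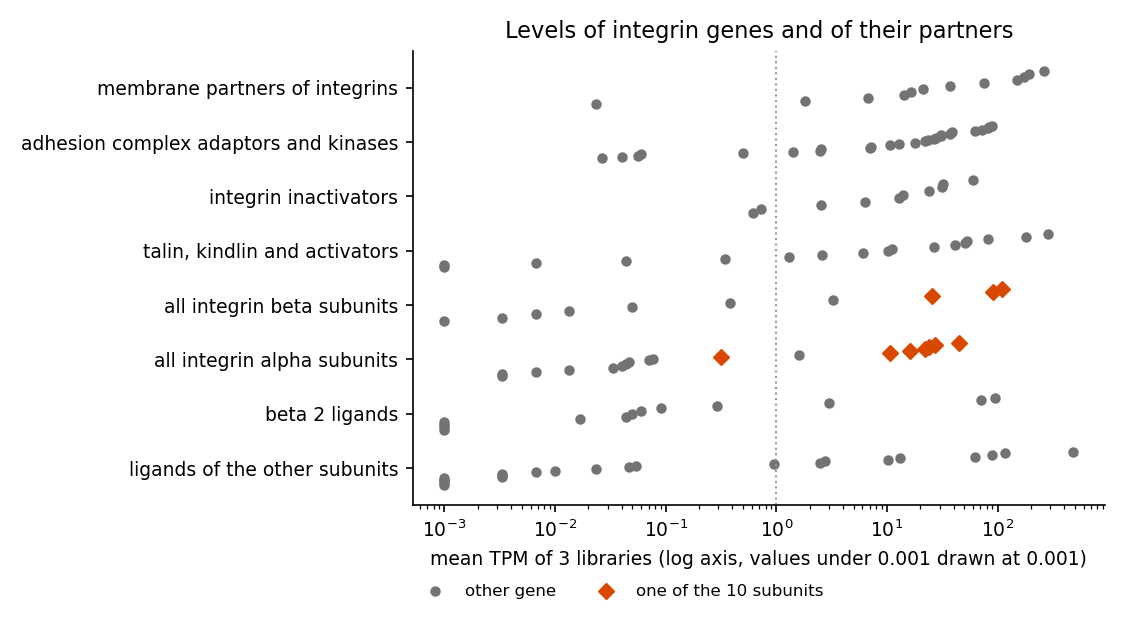
Mean TPM over 3 libraries of each gene on the 8 integrin lists, on a log axis, with the 10 subunits as diamonds; values under 0.001 are drawn at 0.001 and the dotted line marks 1 TPM. Most membrane partners and adaptors lie above the line, and most ligand genes below it.

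The cells matched their label by marker genes. All 8 macrophage markers reached 10 TPM in every library, with a summed level of 4404 to 5254 TPM. All 8 lymphocyte, 7 dendritic cell, 7 fibroblast and 6 erythroid markers had means under 1 TPM, with summed levels of at most 0.13, 1.57, 0.17 and 0.61 TPM in any library. The lymphocyte genes Cd3e and Nkg7 had 0 counts. Of 8 neutrophil markers, S100a9 and S100a8 reached 5.45 ± 1.21 and 3.04 ± 1.01 TPM (n = 3), Ly6g and Retnlg had 0 counts, and the sum was 7.19 to 11.4 TPM. Of 7 megakaryocyte markers Pf4 stood at 83.1 ± 4.71 TPM, a gene that macrophages also express, while Itga2b, the alpha chain of the platelet integrin, stood at 0.07 ± 0.0265 TPM. In RNA from a whole culture, fewer cells with a transcript and less of it in each cell cannot be told apart.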

How the data were processed

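Each of the 3 libraries had 3 deposited tables, per the notes that accompany the files: a gene and a transcript table from an alignment to the transcriptome (mm10, GENCODE M21), and a transcript table made directly from the reads. The authors deposited expected counts, which need not be whole, and TPM in these tables, named so per the file headers. The deposited share of a transcript is a percent of its gene's TPM. Tools, filters and use of strand, not given in the sources used here, could shift the split between transcripts and overlapping genes. Symbols were read from the transcript names, joined by gene identifier, and matched all 10 subunits, and coordinates come from the GENCODE annotation on mm10. Entries for spike-ins and tRNAs, 0.0823% to 0.435% of counts, stayed out of totals and tests.

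With 1 group there was no contrast. Expected counts were rounded for edgeR 4.0.16 (R 4.3.3), using filterByExpr, TMM and a fit without covariates for the BCV. Variation was tested per gene by chi-square with Benjamini-Hochberg adjustment. The test was also run on counts simulated with counting error alone, without the further spread between libraries seen here. On these it called 43 of 50 genes changed 1.5-fold, 48 of 50 changed 2-fold and 13 of 12242 unchanged genes. These calls do not show how the test behaves with that further spread. Departures of a library are differences in log2 CPM with a prior count of 2, and detection required 1 TPM. Alternatives were DESeq2 1.42.0 size factors, total counts, no filter, other denominators, other transcripts, the tables made directly from the reads, and each library left out. The members and lists were chosen with earlier results of these data known. Named genes are the members, the other integrin genes of at least 1 TPM on average or at 0 throughout, the 4 highest and the lowest gene of each list, the genes next to Itgb2 and Itgb1 in level, and transcripts over 10% of their gene. A gene that this rule would name is not reported here. Itgb3, Itgad, Itga6-202, the overlapping genes and the ligand and kindlin genes at 0 are outside it, picked once values were known. Sequences are from GENCODE transcripts and RefSeq promoters (GRCm38.p6). Of Itgb2, Itgal and Itga6 no promoter was used here.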

Additional observations from a re-analysis of the deposited data

How the results depend on the processing

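Not dividing counts by length raised the ratio of alpha to beta from 0.609 to 1.01 for beta 2 and from 0.742 to 1.22 for beta 1, which puts alpha above beta, and from 0.423 to 0.762 for Itgav to Itgb5. The last was 0.497 with full-length coding transcripts alone and 0.273 with all complete coding transcripts of at least 1000 bases, a class that keeps the truncated Itgb5-207 (both added once the data were known), and 0.093 with every known beta partner of alpha v as the denominator. Leaving out each library in turn gave 0.531 to 0.670, 0.669 to 0.809 and 0.397 to 0.448. The departure of Itgav in replicate 1, -0.03 in log2 CPM, became 0.021 with TMM, 0.030 with DESeq2 size factors and 0.156 in the tables made directly from the reads. The median departure of the 10 subunits, -0.13, became 0.061 in those tables, where the median of all genes was 0.22, so it stayed below all genes in both. The number of subunits varying beyond counting error was 7 to 9 under every alternative run, beside 40.4% to 76.8% of all genes tested. Itgav passed in addition with no filter (adjusted p = 0.0225) and in the tables made directly from the reads (0.0411), and Itga6 was lost without replicate 2. The median BCV of the subunits was 0.109 to 0.199 with a library left out. The number of listed genes was 52 at 10 TPM and 62 to 86 under the others. No paired analysis was possible because the libraries form 1 group. All 10 mean TPM moved by more than 1 SD when rescaled over protein-coding genes and in the tables made directly from the reads. In both cases protein-coding genes take a different part of the TPM total. With both kinds of table rescaled over protein-coding genes, the means were 366 and 349 for Itgb2, 147 and 142 for Itgam, and 35.9 and 30.5 for Itgav. Leaving out 1 of 3 libraries cannot move a mean by 1 SD whatever the values, so the means without a library are no check of these levels. Itgax, with 49 to 101 counts, is the subunit whose variation depth limits most.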

Other observations

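Itgb3 was the integrin gene with the highest departure in replicate 2, with 69, 329 and 143 expected counts in replicates 1, 2 and 3 and 1.40 above the mean of the others on the log2 CPM scale. Itgae, the alpha E gene, had 26, 11 and 16 expected counts, and in replicate 2 its log2 CPM differed by -1.07 from the mean of the others. That difference rests on replicate 1, which lay 1.59 above the mean of replicates 2 and 3. In TPM Itgae stood at 0.16, 0.03 and 0.04, so replicates 2 and 3 were close. Both genes were singled out after their values were seen, and their levels of 0.383 ± 0.214 and 0.0767 ± 0.0723 TPM (n = 3) are small beside those of the 10 subunits.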
